A study of Mus musculus with 64 samples.

Results

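Etv1, Etv4 and Etv5 are the 3 members of the PEA3 family of ETS transcription factors, and they were followed here by gene symbol through all 64 RNA-sequencing libraries of 8 mouse pancreatic tumor lines. They are 3 of the 39017 genes in the count table, and all 3 were among the 14134 genes with enough reads to be tested. The 7 lines named Clone E, H, K, M, N, T and V are clonal lines from KPC mice, a pancreatic cancer model driven by Pdx1-Cre in the pancreas, on a mixed C57BL/6 background. Each of these lines is 1 clone. The study places E, H and V in metabolic group 1 and K, M, N and T in group 2, and it assigns the KPC1 line to neither. Every line was sequenced as 4 mono-culture libraries and 4 libraries of tumor cells sorted for GFP after 48 h in coculture with fibroblasts. The labels leave unstated which fibroblasts were used, if mono-cultures also passed through the sorter, and if the 4 libraries of a group came from separate cultures, so that the p-values below measure the spread between these libraries, which may be technical.

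PEA3 factors share the ETS DNA-binding domain, which recognizes a GGAA core, and they are transcribed in response to receptor tyrosine kinases, FGF receptors above all, acting through ERK. Capicua (Cic), a repressor that ERK signaling inactivates, holds their genes down, and the ubiquitin ligase built on Cop1 and Det1 degrades their proteins. In epithelial organs the family is known for branching growth, and in carcinomas for invasion and for genes of matrix remodeling.

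On the mouse build GRCm38 (mm10), the GENCODE M21 annotation places Etv1 (ENSMUSG00000004151) at chr12:38779380-38870484 on the plus strand, Etv4 (ENSMUSG00000017724) at chr11:101769742-101785371 on the minus strand and Etv5 (ENSMUSG00000013089) at chr16:22381309-22439719 on the minus strand. No other annotated gene overlaps any of the 3. RefSeq promoter windows, which run from 250 bases before to 50 bases after a transcript start, were matched for 2 of the 3 genes, Etv1 and Etv5, with 2 windows each on build GRCm38.p6. These 4 windows are shown as a description of sequence, and any relation to the coculture responses was not tested. The capitals mark TGAATG, the word with which the known Capicua sites of PEA3 promoters begin, searched on both strands. The word was chosen after the sequences had been seen, so the shares of windows given below are no test of it.
Etv5 window at chr16:22438319-22438618, minus strand: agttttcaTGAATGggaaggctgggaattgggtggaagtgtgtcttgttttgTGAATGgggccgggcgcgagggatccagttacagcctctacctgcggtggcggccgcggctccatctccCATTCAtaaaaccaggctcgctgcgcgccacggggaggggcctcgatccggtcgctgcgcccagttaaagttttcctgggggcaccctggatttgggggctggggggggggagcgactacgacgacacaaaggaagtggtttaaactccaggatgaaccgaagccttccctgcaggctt
Etv5 window at chr16:22439521-22439820, minus strand: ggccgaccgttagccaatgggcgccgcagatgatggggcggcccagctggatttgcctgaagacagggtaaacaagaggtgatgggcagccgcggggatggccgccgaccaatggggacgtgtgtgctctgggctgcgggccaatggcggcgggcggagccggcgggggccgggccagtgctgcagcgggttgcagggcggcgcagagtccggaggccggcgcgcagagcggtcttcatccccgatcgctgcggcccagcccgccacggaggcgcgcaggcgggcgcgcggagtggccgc
Etv1 window at chr12:38779832-38780131, plus strand: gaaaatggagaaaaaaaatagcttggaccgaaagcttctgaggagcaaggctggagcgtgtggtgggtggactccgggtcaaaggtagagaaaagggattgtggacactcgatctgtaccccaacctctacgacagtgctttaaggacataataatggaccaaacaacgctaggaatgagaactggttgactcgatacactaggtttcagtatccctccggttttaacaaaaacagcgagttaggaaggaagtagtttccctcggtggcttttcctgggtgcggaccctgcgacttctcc
Etv1 window at chr12:38783461-38783760, plus strand: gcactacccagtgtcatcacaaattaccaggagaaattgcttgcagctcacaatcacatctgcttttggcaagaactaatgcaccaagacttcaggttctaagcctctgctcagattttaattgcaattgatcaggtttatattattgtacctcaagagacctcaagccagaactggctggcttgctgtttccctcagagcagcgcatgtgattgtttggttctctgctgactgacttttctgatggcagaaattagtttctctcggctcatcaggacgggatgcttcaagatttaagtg
The first Etv5 window holds TGAATG 3 times, starting at bases 9 and 53 of the window on the strand of the gene and at base 122 on the opposite strand. Of 32851 promoter windows of the same length, 12.7% hold the word at least once and 0.17% hold it 3 times or more. The other Etv5 window, with 74% G and C, and both Etv1 windows do not hold these letters. The word is only the start of a Capicua site, and the letters after it were not part of the search. Each of the 3 matches is followed by GG on its own strand. The shares of windows are for the word alone and not for whole sites. A match of letters is a description of the sequence and says nothing of binding.

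Library totals ran from 11178721 to 21333683 reads, and the 3 genes drew between 108 and 3099 reads in every library, so that counting error was small. The sample numbers in the labels form 2 series, of 43 and 21 libraries, and what they mark is not stated. All 64 libraries were most highly correlated with a library of their own line and culture. Keratins Krt8, Krt18 and Krt19 and the ductal factor Sox9 were expressed in all lines, at 85.3 to 1546 CPM in mono-culture (counts scaled to a common library size with TMM factors). The keratin Krt7 was low, at 0.854 to 11.4 CPM over the lines. Epcam was at most 0.37 CPM, and Cdh1, which encodes E-cadherin, ran from 0.998 CPM to 304 CPM over the lines. Reads from fibroblast genes were present in the sorted cells. Of 20 fibroblast markers, Dcn, Thy1, Postn, Fap, Col5a2 and Pdpn were at 1 CPM or less in each mono-culture group and averaged over 1 CPM in coculture. Summed, they reached at most 0.537 CPM in any mono-culture library and ran from 43.9 CPM to 323 CPM over the coculture libraries, and the sum of all 20 markers ran from 391 to 1592 CPM over the mono-culture groups and from 1164 to 2473 CPM over the coculture groups. Lum and Mfap5 were at or near 0 in both cultures. The part of this RNA in the results below was not tested, except that within lines the marker sum over the 32 coculture libraries had a Pearson r of 0.20 with Etv1, 0.03 with Etv4 and 0.05 with Etv5. In RNA from many cells, a lower share of cells that express a gene and less of its RNA per cell cannot be told apart.

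Each line had its own level of the 3 genes in mono-culture. Levels are the mean ± SD of 4 libraries. Etv1 was highest in clone H, at 75.9 ± 1.14 CPM, followed by clone V at 45.8 ± 5.74 CPM, and lowest in clone N at 13.2 ± 2.24 CPM, a range of 5.75-fold. Etv4 was highest in clone V at 174 ± 19.03 CPM and lowest in clone M at 38.2 ± 12.1 CPM, a range of 4.55-fold. Etv5 was highest in clone H at 141 ± 10.3 CPM and lowest in clone E at 41.5 ± 6.98 CPM, a range of 3.39-fold. The lines differed in all 3 genes by edgeR's quasi-likelihood F test over the 8 lines, with Benjamini-Hochberg adjusted p of 1.4e-17 for Etv1, 1.8e-18 for Etv4 and 4.1e-18 for Etv5. Such differences were the rule, since 95.1% of all genes tested passed the same test at the threshold of 0.1.

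**Figure D1:**
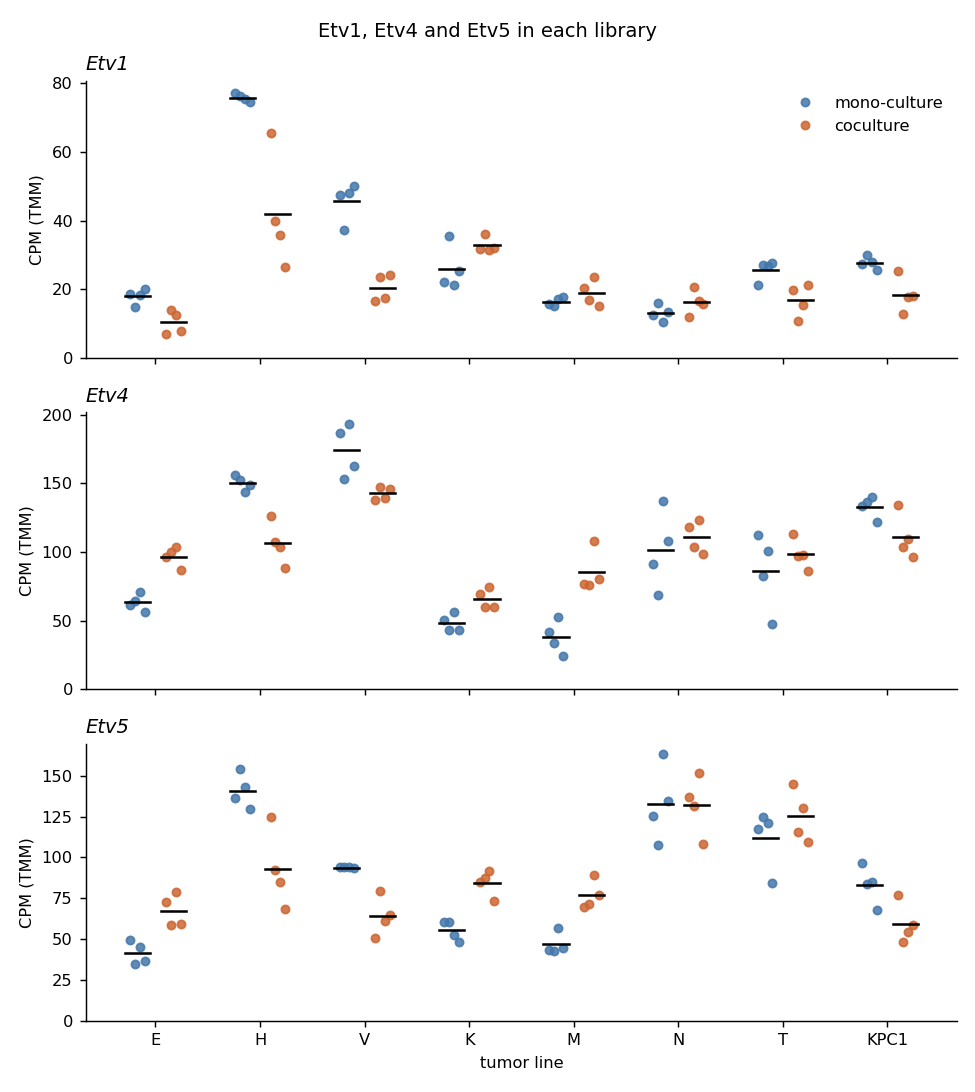
CPM of Etv1, Etv4 and Etv5 in each of the 64 libraries, with 4 mono-culture and 4 coculture points for each tumor line and a black bar at their mean. Etv1 stands highest in clone H in mono-culture (75.9 CPM), and the coculture libraries of clones E, K and M lie above their mono-culture libraries in the panels of Etv4 and Etv5.

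The order of the lines was not resolved at every step. For Etv1, H exceeded V and V exceeded KPC1 without overlap of their libraries, with adjusted p of 0.0025 and 0.0018, whereas KPC1, K and T, at 27.7, 26.05 and 25.7 CPM, did not differ beyond their spread, and neither did E, M and N from one rank to the next (adjusted p of 0.618 and 0.198). For Etv4, the order ran V, H, KPC1, N, T, E, K and M, and the steps from V to H, from H to KPC1 and from N to T did not pass the test. For Etv5, the order ran H, N, T, V, KPC1, K, M and E, and the step from KPC1 at 83.3 CPM to K at 55.3 CPM was the only one between neighbors that passed (adjusted p of 5.5e-04). Of the 28 pairs of lines, 23 differed in Etv1, 25 in Etv4 and 22 in Etv5, beside 57.6% of all gene and pair tests.

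The 3 genes did not follow one order. Clone N was the lowest line for Etv1 and the second highest for Etv5, and clone V was the highest for Etv4 and the fourth for Etv5. Over the 8 lines, the Pearson r of the mono-culture levels (log2 CPM) was 0.76 for Etv4 with Etv5, 0.64 for Etv1 with Etv4 and 0.44 for Etv1 with Etv5, and Spearman's rho was 0.67, 0.67 and 0.33. These are descriptions over 8 lines whose values come from the same libraries. In coculture the corresponding r was -0.14, -0.22 and 0.09.

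Per length, Etv4 had the highest mean of the 3 messages in all 8 lines and in both cultures. RPKM values, which divide reads by gene length and library size, were used for levels between genes because the genes differ in length. The median of the line means in mono-culture was 3.41 RPKM for Etv1, 28.5 RPKM for Etv4 and 18.4 RPKM for Etv5, with ranges of 1.97 to 10.2, 11.2 to 52.5 and 8.55 to 28.3 RPKM. Of the RPKM summed over the 3 genes, Etv4 made up 48.3% to 66.9% over the lines in mono-culture, Etv5 24.9% to 46.1% and Etv1 3.39% to 12.5%. In coculture the shares were 47.7% to 73.1%, 22.2% to 44.7% and 3.22% to 10.9%. In clone E the share of Etv1 was 8.26 ± 1.07% in mono-culture and 3.22 ± 0.819% in coculture (n = 4 each), and in clone H it was 12.5 ± 0.392% and 10.1 ± 1.83%. The lead of Etv4 was small in some lines. In mono-culture its share was 48.3 ± 6.66% in T and 48.3 ± 6.60% in M, beside 44.5 ± 4.37% and 41.7 ± 4.37% for Etv5. In N it was 50.5 ± 3.33%, beside 46.1 ± 2.13% for Etv5. Etv5 exceeded Etv4 in single mono-culture libraries of T, M and N. The shares were not tested, and they rest on the gene lengths behind the RPKM values. The median length implied by RPKM and counts was 3338 bases for Etv4 and 4855 bases for Etv5. The annotated exons cover 3104 and 4103 bases, and shares by those lengths were not computed.

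**Figure D2:**
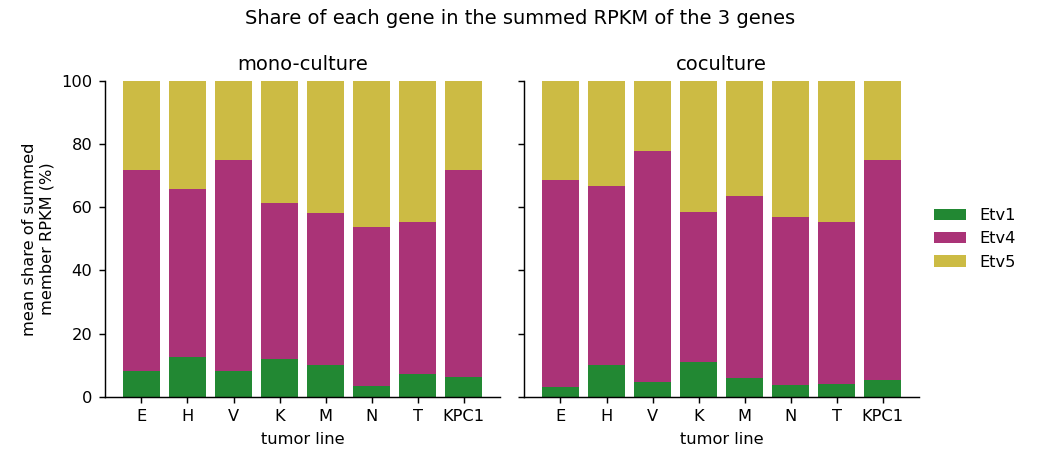
Mean share of Etv1, Etv4 and Etv5 in the RPKM summed over the 3 genes, in percent, for each line in mono-culture and in coculture (stacked bars, 4 libraries each). Etv4 takes the largest share of every bar, and Etv1 at most 12.5%.

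The coculture with fibroblasts addressed how the tumor lines respond to stroma. Etv1 fell in most lines and rose in none, whereas Etv4 and Etv5 each rose in some lines and fell in others. By edgeR's quasi-likelihood test within each line, with adjustment over all genes and a threshold of 0.1, Etv1 fell in 5 lines and rose in none, Etv4 rose in 3 and fell in 1, and Etv5 rose in 3 and fell in 3. Pooled over the 8 lines, 23.7% of all tests were called higher and 21.9% lower. The share of all genes called in either direction was 61.3% in clone E, 44% in H, 61.5% in V, 20.5% in K, 38.9% in M, 37.4% in N, 62.2% in T and 39.2% in KPC1. Each of the 3 genes had mono-culture and coculture libraries that did not overlap in 5 of 8 lines, beside 35.3% of all gene and line tests.

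**Figure D3:**
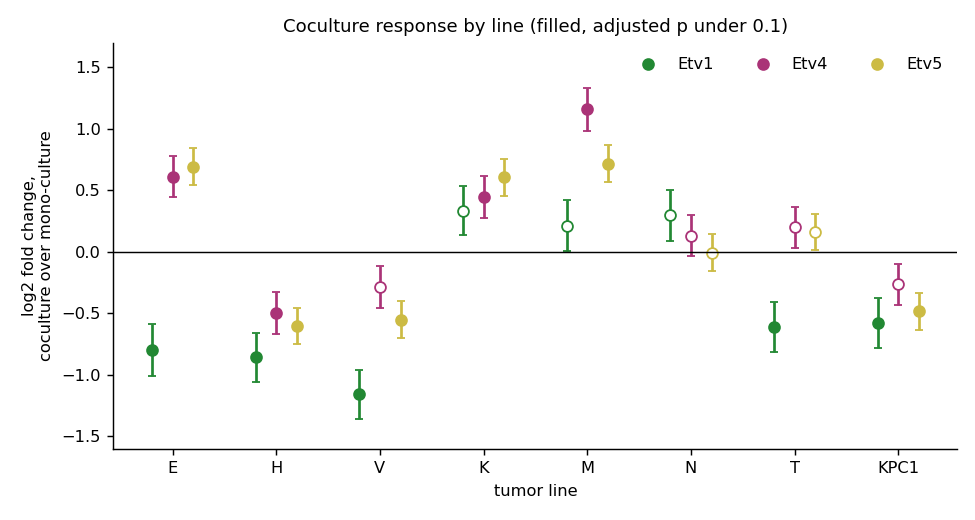
Log2 fold change of coculture over mono-culture for each gene and line, with the standard error of the edgeR fit (4 against 4 libraries), filled where the adjusted p was under 0.1. Clone E has Etv1 at -0.80 and Etv4 and Etv5 at 0.61 and 0.69, clone H has all 3 below 0, and clone M has the largest rise, 1.16 for Etv4.

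In clone E the family split. Etv1 was at 18.7, 14.8, 18.4 and 20.2 CPM in mono-culture and 7.11, 13.9, 12.6 and 7.95 CPM in coculture, a fall by 0.80 on the log2 scale (SE 0.21, adjusted p = 0.0012). Etv4 was at 61.7, 64.5, 70.6 and 56.5 CPM in mono-culture and 96.3, 100.1, 104 and 87.2 CPM in coculture, a rise of 0.61 (SE 0.17, adjusted p = 0.0019). Etv5 was at 49.3, 34.7, 45.4 and 36.7 CPM in mono-culture and 72.4, 58.4, 78.6 and 59.3 CPM in coculture, a rise of 0.69 (SE 0.15, adjusted p = 1.3e-04). The cultures did not overlap for any of the 3 genes, so that every coculture library of clone E held less Etv1 and more Etv4 and Etv5 than every mono-culture library.

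In clone H all 3 genes fell. Etv1 was at 77.2, 76.2, 75.5 and 74.5 CPM in mono-culture and 65.5, 39.9, 35.7 and 26.6 CPM in coculture, a fall by 0.86 on the log2 scale (SE 0.20, adjusted p = 5.3e-04). Etv4 was at 156, 152, 144 and 149 CPM in mono-culture and 126, 107, 103 and 88.5 CPM in coculture, a fall by 0.50 (SE 0.17, adjusted p = 0.016). Etv5 was at 137, 154, 143 and 129.6 CPM in mono-culture and 125, 92.4, 85.2 and 68.3 CPM in coculture, a fall by 0.60 (SE 0.15, adjusted p = 0.0012). The mono-culture libraries lay close together and the coculture libraries were spread out, in the same order for each gene. Fibroblast markers moved with that order, since the sum of the 6 markers was 86.0, 193, 212 and 238 CPM in the same coculture libraries. The library with the fewest fibroblast reads had the highest Etv1, Etv4 and Etv5, and the part of those reads was not tested. Clone H was the only line of the 8 in which the library with the fewest fibroblast reads was the highest for any of the 3 genes.

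In clone V, Etv1 and Etv5 fell. Etv1 was at 47.6, 37.4, 48.2 and 50.2 CPM in mono-culture and 16.7, 23.6, 17.4 and 24.3 CPM in coculture, a fall by 1.16 on the log2 scale (SE 0.20, adjusted p = 3.3e-06), the largest fall of any member in any line. Etv5 was at 93.9, 93.9, 94.01 and 93.5 CPM in mono-culture and 50.6, 79.4, 61.3 and 64.6 CPM in coculture, a fall by 0.55 (SE 0.15, adjusted p = 0.0016). The 4 mono-culture values of Etv5 were nearly equal. Etv4 was at 187, 153, 193 and 163 CPM in mono-culture and 138, 148, 139 and 146 CPM in coculture, a log2 difference of -0.29 (SE 0.17) that did not pass (adjusted p = 0.143) although the libraries did not overlap. In a fit of the 8 libraries of clone V alone it passed, at -0.26 (adjusted p = 0.030). In the larger series of sample numbers alone, Etv5 did not pass, at -0.40 (adjusted p = 0.107).

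In clones K and M, Etv4 and Etv5 rose and Etv1 did not pass the test. In K, Etv4 was at 50.8, 43.6, 56.6 and 43.2 CPM in mono-culture and 69.5, 60.1, 74.8 and 59.99 CPM in coculture, a rise of 0.45 (SE 0.17, adjusted p = 0.068). Etv5 was at 60.2, 60.5, 52.3 and 48.1 CPM in mono-culture and 84.8, 87.4, 91.8 and 73.1 CPM in coculture, a rise of 0.61 (SE 0.15, adjusted p = 0.0027). The rise of Etv4 in K was the least secure of the calls, and it was lost when replicate 1, 2 or 3 of every group was left out (adjusted p of 0.203, 0.178 and 0.115). All mono-culture libraries of K are in the smaller series of sample numbers, so the larger series alone could not test K. Its coculture Etv4 was at 69.5 and 74.8 CPM in the smaller series and 60.1 and 59.99 CPM in the larger. With the series as a covariate in the edgeR fit, Etv4 rose by 0.48 and Etv5 by 0.59 (adjusted p of 0.054 and 0.0050). In M, Etv4 was at 41.6, 33.7, 52.99 and 24.6 CPM in mono-culture and 76.7, 76.1, 108 and 80.4 CPM in coculture, a rise of 1.16 (SE 0.17, adjusted p = 8.0e-07), and Etv5 was at 43.3, 42.999, 56.7 and 44.4 CPM in mono-culture and 69.5, 71.5, 89.4 and 77.2 CPM in coculture, a rise of 0.72 (SE 0.15, adjusted p = 2.5e-04). Clone M had the lowest Etv4 of all lines in mono-culture and the second lowest in coculture. Etv1 differed by 0.34 in K (adjusted p = 0.281) and by 0.21 in M (adjusted p = 0.454), and the cultures overlapped.

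In clones N and T and in KPC1 fewer members passed. In N no member did, with log2 differences of 0.30 for Etv1, 0.13 for Etv4 and -0.01 for Etv5 (adjusted p of 0.293, 0.583 and 0.984). Etv5 in N was at 125, 108, 163 and 134 CPM in mono-culture and 137, 131, 151 and 108 CPM in coculture, among the highest levels in the series in both cultures. In T, Etv1 was at 21.3, 27.1, 26.7 and 27.8 CPM in mono-culture and 19.9, 10.8, 15.5 and 21.1 CPM in coculture, a fall by 0.61 on the log2 scale (SE 0.20, adjusted p = 0.0088), while Etv4 and Etv5 differed by 0.20 and 0.16 without passing (adjusted p of 0.318 and 0.367). T, like E, paired a fall of Etv1 with means of Etv4 and Etv5 that were not lower. In the larger series of sample numbers alone, Etv4 in T passed at 0.57 (adjusted p = 0.061). In KPC1, Etv1 was at 27.4, 29.9, 27.9 and 25.5 CPM in mono-culture and 25.2, 12.8, 17.8 and 18.1 CPM in coculture, a fall by 0.57 (SE 0.20, adjusted p = 0.026). Etv5 there was at 96.5, 83.9, 85.1 and 67.7 CPM in mono-culture and 76.8, 48.2, 54.2 and 58.7 CPM in coculture, a fall by 0.48 (SE 0.15, adjusted p = 0.011), and Etv4 differed by -0.26 (adjusted p = 0.236). Without replicate 2 of every group both KPC1 calls were lost (adjusted p of 0.167 and 0.101), and without replicate 3 that of Etv1 (0.112). All but 1 of the mono-culture libraries of KPC1 are in the smaller series, and the larger series alone gave -0.55 and -0.46 without passing (adjusted p of 0.292 and 0.253).

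The responses differed between the lines for each gene. The F test of the interaction of line and culture gave adjusted p of 5.9e-06 for Etv1, 5.5e-07 for Etv4 and 9.7e-09 for Etv5, and 71.3% of all genes passed it. With the line as the replicate, on counts summed over the 4 libraries of a line and culture, Etv1 fell by 0.40 on the log2 scale (SE 0.18, adjusted p = 0.098, lower in 5 of 8 lines). That call was lost when clone E, H, V or T or the KPC1 line was left out (log2 values of -0.34, -0.32, -0.29, -0.37 and -0.37). Etv4 differed by 0.19 (SE 0.17, adjusted p = 0.372, higher in 5 of 8 lines) and Etv5 by 0.07 (SE 0.17, adjusted p = 0.771, higher in 4 of 8 lines). Of all genes, 27.2% were called higher and 27.4% lower in this comparison.

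Etv4 and Etv5 responded in the same order of lines. From the most negative to the most positive, the log2 fold changes of Etv4 and Etv5 ranked the 8 lines H, V, KPC1, N, T, K, E and M, with a Spearman's rho of 1 and a Pearson r of 0.94 over 8 lines, and the r was 0.99 without clones M and H. Among 14133 genes, Etv5 ranked 34 by its r with Etv4, and Etv4 ranked 77 by its r with Etv5. Etv1 stood further off, with an r of 0.59 with Etv4 and of 0.58 with Etv5. The values of the 3 genes come from the same libraries and share their depth and composition, and no p is given for these correlations.

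**Figure D4:**
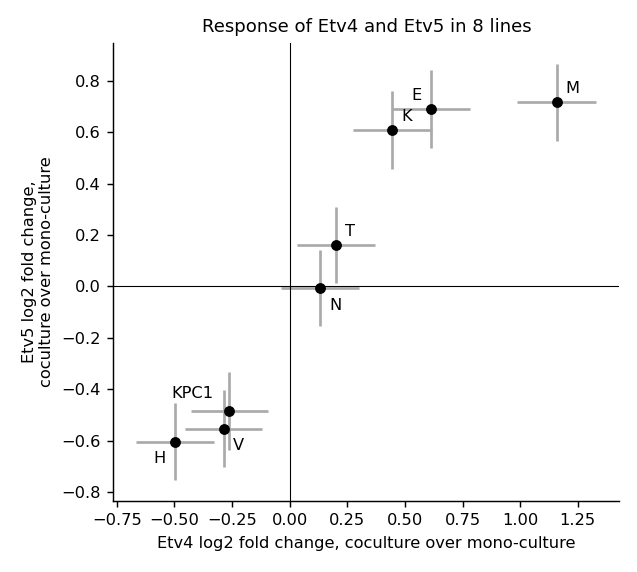
Log2 fold change in coculture of Etv4 (x axis) and of Etv5 (y axis) in the 8 lines, with the standard errors of the edgeR fit. The lines follow one order on both axes, from H (-0.50 and -0.60) to M (1.16 and 0.72).

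The same pair also moved together among libraries of one line and culture. After the mean of each of the 16 groups had been subtracted from log2 CPM, Etv4 and Etv5 had a Pearson r of 0.65 and a Spearman's rho of 0.66 over the 64 libraries. Etv5 ranked 75 among 14133 genes by its r with Etv4, and Etv4 ranked 50 by its r with Etv5. Etv1 had an r of 0.37 with Etv5 and of 0.03 with Etv4. Clone N in mono-culture is an example, where libraries 1 to 4 held 91.4, 68.6, 137 and 108 CPM of Etv4 and 125, 108, 163 and 134 CPM of Etv5, while Etv1 was at 12.7, 16.02, 10.6 and 13.5 CPM.

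The lines lay closer together in coculture. The 3 lines with the lowest Etv4 and Etv5 in mono-culture, E, K and M, were those in which both genes rose, and clone H, the first for Etv5 and the second for Etv4, was the line in which both fell. The mono-culture level enters both the level and the response, so this is a description. The range from the lowest to the highest line mean went from 4.55-fold to 2.16-fold for Etv4, from 3.39-fold to 2.22-fold for Etv5 and from 5.75-fold to 4.03-fold for Etv1. The SD of log2 CPM over the 8 lines went from 0.78 to 0.32 for Etv4, from 0.68 to 0.43 for Etv5 and from 0.81 to 0.61 for Etv1, while the median SD over all genes was 0.36 in mono-culture and 0.35 in coculture. The SD was smaller in coculture for 57.6% of genes, and by the ratio of the SDs Etv4 lay at percentile 2.1, Etv5 at 13.1 and Etv1 at 25.7 of all genes.

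**Figure D5:**
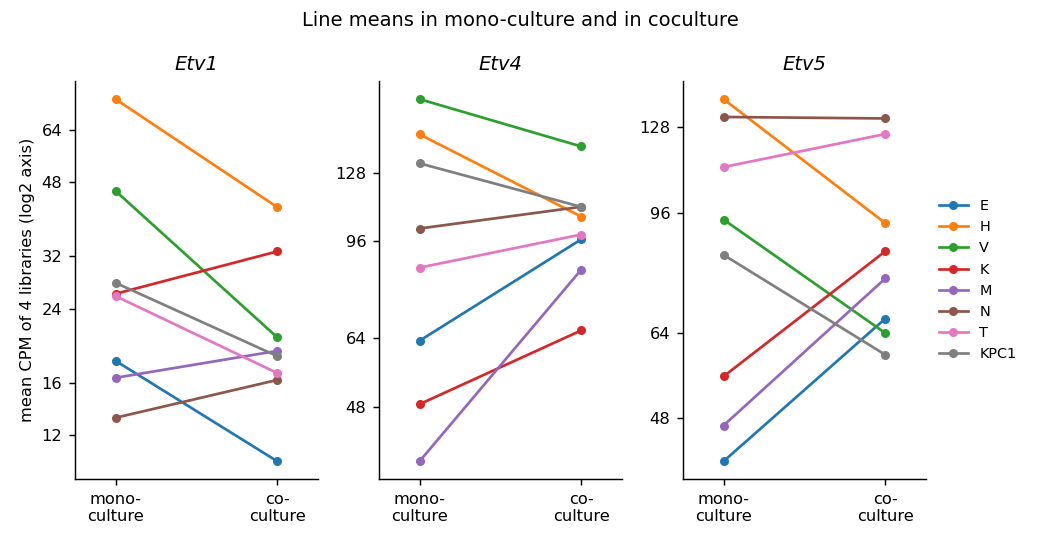
Mean CPM of 4 libraries in mono-culture and in coculture for each line, on log2 axes that differ between the 3 panels. The lines of Etv4 draw together, from 38.2 to 174 CPM in mono-culture to 66.1 to 143 CPM in coculture.

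The lines still differed in coculture. Etv1 was highest in clone H (41.9 ± 16.7 CPM) and K (32.9 ± 2.28 CPM), which did not differ (adjusted p = 0.126), and lowest in clone E (10.4 ± 3.36 CPM). Etv4 was highest in V (143 ± 4.66 CPM) and lowest in K (66.1 ± 7.30 CPM), and the lines N, KPC1, H, T, E and M between them did not differ from rank to rank. Etv5 was highest in N (132 ± 18.02 CPM) and T (125 ± 15.8 CPM) and lowest in KPC1 (59.5 ± 12.3 CPM), and the step from T to H was the only one that passed (adjusted p = 0.018). The F test gave adjusted p of 3.4e-12 for Etv1, 6.9e-06 for Etv4 and 2.9e-11 for Etv5, and 94.3% of all genes passed. Of 28 pairs, 17 differed in Etv1, 15 in Etv4 and 19 in Etv5, beside 54.4% of all gene and pair tests.

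The metabolic groups overlapped in these genes, and the tests with the clone as the replicate called no difference. In mono-culture, Etv1 averaged 46.6 ± 28.9 CPM over the 3 clones of group 1 and 20.3 ± 6.53 CPM over the 4 clones of group 2, Etv4 129 ± 58.3 and 68.5 ± 29.97 CPM, and Etv5 92.0 ± 49.6 and 86.7 ± 42.1 CPM. The clones of both groups overlapped for all 3 genes. The exact permutation test, two-sided, over all 35 splits of 7 clones into 3 and 4, whose smallest possible p is 0.0286, gave p = 0.114 for Etv1, 0.171 for Etv4 and 0.943 for Etv5, or 0.343, 0.343 and 1 after Benjamini-Hochberg adjustment over 6 tests. A single gene at the smallest p would not pass 0.1 after this adjustment, so the adjusted values cannot show that the groups are alike. In coculture the same exact test gave 1, 0.257 and 0.171 (0.386 for Etv4 and 0.343 for Etv5 after adjustment), and Etv5 averaged 74.6 ± 15.7 CPM in group 1 and 105 ± 27.98 CPM in group 2.

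edgeR's quasi-likelihood test on the clone sums called 0% of 14829 genes between the groups in mono-culture, although 766 had an unadjusted p under 0.05 and DESeq2 called 157. The log2 differences were 1.20 (SE 0.47) for Etv1, 0.92 (SE 0.45) for Etv4 and 0.09 (SE 0.50) for Etv5, with adjusted p of 0.888, 0.888 and 0.984. In coculture 0.00679% was called, which is the single gene Cd34, named here after its value had been seen, with 1263 genes at an unadjusted p under 0.05 and 207 called by DESeq2. The differences there were 0.20 (SE 0.47), 0.36 (SE 0.23) and -0.48 (SE 0.25) for Etv1, Etv4 and Etv5. Groups that did not overlap at all were seen for 5.29% of genes in mono-culture and 9.11% in coculture. Fits that counted each library as a replicate, so that 4 libraries of a clone stood for 4 clones, gave adjusted p of 8.8e-04 for Etv1 and 0.0083 for Etv4 in mono-culture.

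Of the genes that are known to act on the family, Cic fell in every line. Among 18 such regulators, 6 rose and 7 fell over the 8 lines by the test on line sums, with a median log2 change of -0.02, beside a median of 0.00 for all genes. Cic, the repressor of PEA3 genes, went from a mean over lines of 411 CPM to 280 CPM, a fall by 0.57 on the log2 scale (SE 0.08, adjusted p = 0.0015), and it fell in 8 of 8 lines when each was tested. Atxn1l, whose product stabilizes Capicua, fell by 0.38 (adjusted p = 0.0023) and Trib3, a pseudokinase of the Tribbles family, rose by 1.48 (adjusted p = 0.0025). Cop1, which directs PEA3 proteins to degradation, rose by 0.24 (adjusted p = 0.020), whereas Det1, its partner in the ligase, fell by 0.77 (adjusted p = 0.014), and in 5 of 8 lines when each was tested. Det1 is named after its value had been seen. Over the 8 lines, the responses of Etv4 and Etv5 had an r of 0.04 and -0.06 with that of Cic, and that of Etv1 had an r of 0.71. With Cop1 the r was -0.81 for Etv1, -0.52 for Etv4 and -0.59 for Etv5. Of all genes, 9.80% had a higher r with Etv1 than Cic had. A higher r than that of Cop1 was held by 96.2% of genes with Etv1, 83.0% with Etv4 and 85.4% with Etv5. No p is given for these correlations over 8 lines.

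ERK outputs did not move in one direction. Of 19 tested, 3 rose and 5 fell, with a median log2 change of -0.04. Dusp6, a phosphatase that restrains ERK and is induced by it, fell by 0.37 (SE 0.11, adjusted p = 0.021), and it fell in 4 lines and rose in none. Spry1 and Spred2, which also feed back on ERK signaling, fell by 0.67 and 0.38 (adjusted p of 0.0052 and 0.0049), whereas the transcription factor genes Fosl1 and Myc rose by 1.14 and 0.84 (adjusted p of 0.0013 and 7.1e-04). Spry4 differed by -0.04 (adjusted p = 0.638) and passed in 0 lines. Over the 8 lines, the response of Dusp6 had an r of 0.74 with Etv1, 0.63 with Etv4 and 0.46 with Etv5, and that of Spry4 had -0.45, -0.11 and -0.03. In mono-culture, Il17rd (0.334 to 32.7 CPM) and Epha4 (43.6 to 214 CPM) had the smallest p for a difference between lines within this list.

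Of the FGF ligands and receptors, which lie upstream of the family, 10 of 28 had enough reads to be tested, and 5 rose and 2 fell. The main receptor gene, Fgfr1, ran from 56.3 to 342 CPM over the lines in mono-culture and differed by -0.11 in coculture over the 8 lines (SE 0.15, adjusted p = 0.564). That mean covers opposite responses, since Fgfr1 fell in 3 lines and rose in 1, with log2 changes from -0.999 in V (adjusted p = 8.0e-08) to 0.74 in M (adjusted p = 7.6e-05). Fgf7, which encodes a ligand of the epithelial receptor form, ran from 2.04 to 50.7 CPM in mono-culture and differed by 0.05 (adjusted p = 0.768). The gene of that receptor, Fgfr2, was at 0 CPM in every mono-culture group and at most 0.453 CPM in a coculture group, too low to be tested. It is named after its value had been seen. Fgf1 fell by 1.63 (SE 0.39, adjusted p = 0.0086). Fgf10, a ligand that mesenchymal cells supply, reached at most 0.384 CPM in a mono-culture group and ran from 0.672 to 2.23 CPM over the coculture groups, beside the fibroblast reads described above, whose part was not tested. Fgfr3 and Fgf15 also rose and stayed at or below 0.504 and 5.29 CPM.

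Of the other ETS genes, 15 were tested, of which 1 rose and 6 fell, with a median log2 change of -0.13. Elk4 and Elf1 fell by 0.34 and 0.25 (adjusted p of 0.0041 and 0.0060), and the epithelial factors Ehf and Elf3 fell by 1.85 and 0.76 (adjusted p of 0.0041 and 0.018) from means of 3.88 and 6.03 CPM. Elk1 ran from 35.4 to 88.6 CPM over the lines in mono-culture. Of 19 tested genes reported as PEA3 targets, 7 rose and 4 fell, with a median of 0.23. Has2, a hyaluronan synthase, rose by 3.06 (adjusted p = 0.0061) from at most 2.56 CPM. Its mean over lines went from 0.733 to 2.74 CPM, and the part of the fibroblast reads in that rise was not tested. In contrast, Muc4, Icam1 and Erbb2 fell by 1.47, 0.70 and 0.56 (adjusted p of 0.0018, 0.0069 and 0.0071). Muc4 and Icam1 were low, with means over lines of 1.13 and 4.05 CPM in mono-culture and 0.391 and 2.42 CPM in coculture. Erbb2 went from 62.6 to 41.5 CPM. Mmp14, a membrane-bound matrix protease, ran from 5.92 to 272 CPM over the lines in mono-culture and differed by 0.33 (adjusted p = 0.224), and Cdh2, which encodes N-cadherin, ran from 57.2 to 318 CPM and differed by 0.01.

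The genes most like each member were found by the Pearson r of group means on the log2 CPM scale among 12033 genes. Over the 16 groups, Etv1 was most like Amot (0.95), Sdc3 (0.91), Gprc5c (0.90), Itgav (0.88) and Erf (0.88), the last an ETS repressor that ERK controls. Etv4 was most like Sox7 (0.94), Slc26a9 (0.92), Fbxw11 (0.92), Alcam (0.91) and Tnfsf11 (0.91). Etv5 was most like Arhgdib (0.86), Kcnd1 (0.85), Mrpl39 (0.85), Itpkb (0.84) and Kcnn4 (0.84). Over the 8 mono-culture groups alone, the first for Etv1 was again Amot (0.99), followed by Apbb3, Chsy3, Setd3 and Enpp1 (0.96 to 0.97). For Etv4 they were Ahsa1 (0.98), Fut8, Sox7, Nt5e and Gm13835 (0.97 each), and for Etv5 they included Sav1, Kdelc1, Mgat2 and Kcnn4 (0.91 to 0.92). Thus Amot, Sox7 and Kcnn4 were in both lists of their gene. By the level over the 16 groups, Etv4 ranked 303 among 12035 genes for Etv5, and Etv5 ranked 1638 for Etv4. With 16 or 8 points among that many genes, high values of r arise by number alone, and they describe likeness of level only.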

How the data were processed

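RNA was measured by strand-specific, paired-end sequencing of polyadenylated RNA in 64 libraries. The authors deposited whole-number read counts per gene without normalization, and the processing notes name featureCounts, edgeR and mm10. The aligner is not given in the sources used here. The authors also deposited RPKM values for 49585 genes. The gene lengths that RPKM and counts imply varied by library (6650 to 8221 bases for Etv1), so RPKM served for levels between genes only. No per-sample column was left unused, and depth ran from 11178721 to 21333683 counts.

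Counts were filtered with filterByExpr, scaled by TMM and tested with edgeR 4.0.16 (R 4.3.3) in 1 fit of 16 groups, with Benjamini-Hochberg adjustment and the study's threshold of 0.1. The 8-line response and the groups were tested on counts summed by line. DESeq2 1.42.0, limma 3.58.1 on log2(RPKM + 1) and log2(RPKM + 0.1), RLE scaling, no filter, series of sample numbers, a replicate block, left-out replicates and lines, and a threshold of 0.05 were alternatives. Similar genes needed a mean of 1 CPM. Tests were tested on simulated data. Within-group pairs of libraries differed by more than sampling noise (chi-square per gene of 4.46 to 65.8 over 96 pairs).

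The members and gene lists were chosen with earlier results of these data known. Besides all members, the genes named are those most like each member, from each list up to 4 with the smallest p in coculture and up to 2 between lines, and Cic, Cop1, Dusp6 and Spry4. A few genes that this rule names are not reported here. Of the marker lists, 14 of 18 fibroblast genes tested rose and 1 fell. Of the epithelial list, 1 of 6 rose and 2 fell. Of the leukocyte genes Cd68 alone was tested and rose, and of 2 endothelial genes 1 rose and 1 fell.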

Additional observations from a re-analysis of the deposited data

Results flagged for a closer look

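The coculture response differed between the lines for all 3 genes by the interaction test, with adjusted p of 5.9e-06 for Etv1, 5.5e-07 for Etv4 and 9.7e-09 for Etv5 (edgeR's quasi-likelihood test, Benjamini-Hochberg), in opposite directions for Etv4 between clones H and M and for Etv5 between clones H and E.

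In 4 of 48 groups of 4 libraries, 1 library stood apart from the other 3, where chance marks about 1 group in 20, or 2.4 groups. Etv1 was at 21.3 CPM in mono-culture replicate 1 of clone T, against 26.7 to 27.8 CPM in the others. It was at 36.3 CPM in coculture replicate 2 of clone K, against 31.5 to 32.1 CPM. Etv4 was at 107.8 CPM in coculture replicate 3 of clone M, against 76.1 to 80.4 CPM. Etv5 was at 56.7 CPM in mono-culture replicate 3 of clone M, against 42.999 to 44.4 CPM, and the Etv4 of that library, at 52.99 CPM, was the highest of its group too.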

How the results depend on the processing

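Of 333 values of a gene in a line under the alternatives, 319 kept their direction and their side of the threshold, 10 lost the call, 4 gained it and 0 reversed. All 90 values of the 9 F tests stayed past the threshold. The number of lines in which Etv4 fell was 2 with the replicate block, where clone V passed (-0.27, adjusted p = 0.084), and 2 in fits on a line's own libraries, and 1 to 2 with a replicate left out. The number in which Etv5 fell was 1 with the larger series of sample numbers only, where clone V (-0.40, adjusted p = 0.107) and KPC1 (-0.46, adjusted p = 0.253) missed the threshold and Etv4 in clone T passed it (0.57, adjusted p = 0.061). The fall of Etv1 over the 8 lines missed the threshold of 0.05 (-0.40), and it missed 0.1 with RLE scaling (-0.40, adjusted p = 0.104), with no filter (-0.39, adjusted p = 0.131) and without KPC1 (-0.37), and it ranged from -0.51 to -0.29 with a replicate or line left out. The cause was not tested, beyond the fewer lines or libraries in the last of these.

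With each library as a replicate, Etv4 passed over the 8 lines (0.18, and 0.19 with the replicate block). Between the groups in mono-culture so did Etv1 (1.19, and 1.20 with the block) and Etv4 (0.91 and 0.93), and in coculture Etv4 (0.36 and 0.36) and Etv5 (-0.49 and -0.49). These fits treat 4 libraries of a clone as 4 clones. With a clone or replicate left out, values that did not pass changed sign for Etv1 in coculture (-0.43 to 0.57), for Etv5 in mono-culture (-0.33 to 0.44) and for Etv5 over the 8 lines (-0.03 to 0.17).

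The block changed no other call of a line. Equal replicate numbers were to be taken as paired only if the labels said so or every same-numbered pair correlated above 0.1, and 18 of 32 did. The sample titles also hold a running number, which in every line goes from mono-culture to coculture of the same replicate number. The labels do not say what that number marks. As a hint from the data that numbers may share something, the median r was 0.11 for equal and -0.04 for other numbers, and 24 of 32 mono-culture libraries matched their own number best. The count of all genes called moved over 1.5 times from 2894 in clone K to 1920 and 1851 without replicates 3 and 4, from 5495 in M to 3485 without replicate 4, and from 5534 in KPC1 to 2763 in the larger series. Between the groups in mono-culture it went from 0 to 157 with DESeq2, 1 without the filter, 2 in the larger series, 217 without clone E, 1 without clone M, and 3925 and 3619 with each library as a replicate, without and with the block. In coculture it went from 1 to 207, 19 without E, 0 without V, 2 without T, and 5148 and 4932. Mean RPKM of each gene moved by less than 1 SD when rebuilt from counts. Depth did not limit the members, at 108 reads or more in each library.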
